A study of Homo sapiens with 6 samples.

Results

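The 52 genes described here encode the machinery of clathrin-mediated endocytosis and of the ESCRT complexes (endosomal sorting complexes required for transport). They were chosen by name, by looking up their Ensembl identifiers among the 29483 genes of the expression table, and all 52 were present and passed the filter on low values. The cells were HK-2, an established human line derived from the epithelium of the proximal tubule of the kidney. For 7 days every culture was kept in high glucose (HG, D-glucose at 25 mM). All cultures then spent 1 further day in HG. On that day the control group (3 replicates) stayed without TEPP-46, and the case group (3 replicates) received 10 μM TEPP-46, an activator of the glycolytic enzyme PKM2. Both groups carried the glucose exposure, so its own effect is not compared here, and the results hold for a single cell line. Values are FPKM, in which the read count of a gene is divided by gene length and library size. Whole reads recovered from these values summed to 18596919, 17890024, and 17341303 in control replicates 1, 2, and 3, and to 16652167, 16005378, and 15313255 in case replicates 1, 2, and 3. The paper's introduction calls the replicates independent, and its methods call them separately treated. The labels do not describe how the replicates were kept apart. P-values of single genes set the difference between the groups against the spread between these libraries.

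Clathrin-mediated endocytosis is the main route by which epithelial cells take receptors and their ligands from the surface. FCHO proteins and the AP-2 adaptor start a coated pit on the inner face of the membrane, clathrin triskelia made of heavy and light chains assemble into a cage, dynamin cuts the neck, and kinases, synaptojanin and the chaperone HSC70 strip the coat. Receptors tagged with ubiquitin by CBL ligases are then handed, on the endosome, from ESCRT-0 to ESCRT-I, ESCRT-II and ESCRT-III. These complexes bud them into vesicles bound for the lysosome, and the VPS4 ATPase recycles the machinery. Proximal tubule cells in the kidney depend on this route to recover filtered protein through megalin (*LRP2*) and cubilin (*CUBN*).

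Marker genes were used to compare the line with its label. Of 15 markers of differentiated proximal tubule, 11 were in the table and 0 passed the filter, and their summed level was between 0.737 and 1.07 FPKM in the 6 libraries, with *MME* (a membrane peptidase) the most abundant. *LRP2* was at 0 in every library except control replicate 2 (0.00686 FPKM, 2 reads), and *CUBN* was at or under 0.0508 FPKM. The 7 tested markers of epithelial keratins and adhesion summed to between 997 and 1333 FPKM, led by *KRT19* (a keratin of simple epithelia), and *CDH1* (E-cadherin) was downregulated among them. Markers of fibroblasts, endothelium, and distal tubule summed to at most 0.454, 0.101, and 0.0464 FPKM. The leukocyte list summed to between 0.231 and 0.948 FPKM, nearly all of it *CD14* (a coreceptor for lipopolysaccharide), which was downregulated. Keratin transcripts were thus abundant, and the receptors that define protein uptake in the proximal tubule were near absent. Each library holds the RNA of a whole culture, and fewer cells of a kind cannot be told apart from less RNA per cell.

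Case replicate 2 stood nearest to the control group. On the first principal component of all tested genes, which held 37.2% of the variance, the control libraries scored -22.9, -27.8, and -23.7, case replicates 1 and 3 scored 30.5 and 34.4, and case replicate 2 scored 9.54. Among the 52 genes, case replicate 2 was the case library closest to the control mean in 35 (67.3%, against 48.9% of all tested genes), and case replicate 1 was the farthest in 33 (46.2% of all tested genes). The 52 genes had a median standard deviation on the log2 scale of 0.066 among control and 0.198 among case libraries. Over all tested genes these medians were 0.0886 and 0.189, so the case group was the more variable in the set and in all tested genes alike.

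Upstream sequences are shown for *TSG101* and *VPS37B* (ESCRT-I) and *CLTA* (clathrin light chain), the 3 upregulated genes that kept their call when gene length was corrected for. The sequences are from RefSeq, on GRCh38.p14, and of the 200 bases before the RefSeq start those that also lie before the gene's first base in the annotation are printed, 5′ to 3′ on the strand of the gene. The stretch of *TSG101* is chr11:18526952-18527142 (minus strand), that of *VPS37B* chr12:122896128-122896324 (minus strand), and that of *CLTA* chr9:36190721-36190855 (plus strand). Capitals mark matches, on either strand, to TGACGTCA (cyclic AMP response element), TGACG (its core, which also lies inside the former), CACGTG (E-box), GGGCGG (GC box), CCAAT, and CGGAAG (ETS core).
TSG101: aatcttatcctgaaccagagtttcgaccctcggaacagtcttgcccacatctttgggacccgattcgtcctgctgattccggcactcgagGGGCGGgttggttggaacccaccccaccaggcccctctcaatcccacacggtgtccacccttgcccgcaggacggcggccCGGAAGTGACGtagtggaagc
VPS37B: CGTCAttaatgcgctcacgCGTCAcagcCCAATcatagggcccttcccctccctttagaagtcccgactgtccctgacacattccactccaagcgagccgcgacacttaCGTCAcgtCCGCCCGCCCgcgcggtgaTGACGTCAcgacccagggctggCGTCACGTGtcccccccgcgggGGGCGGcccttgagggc
CLTA: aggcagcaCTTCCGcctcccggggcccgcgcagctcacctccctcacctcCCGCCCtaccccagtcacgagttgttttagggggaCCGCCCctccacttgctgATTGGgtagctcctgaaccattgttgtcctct
The *VPS37B* stretch held 1 TGACGTCA, 6 TGACG (overlaps and the matches inside TGACGTCA included), and 1 CACGTG, the *TSG101* stretch held 1 TGACG beside 1 CGGAAG, and the *CLTA* stretch held 0 of these first 3 motifs and 1 CGGAAG. The stretches of *VPS37B*, *TSG101*, and *CLTA* held 3, 1, and 2 GGGCGG, and CCAAT was found 1 time each in those of *VPS37B* and *CLTA* and 0 times in that of *TSG101*. In 200 bases before the start of the 35116 promoters in the table, TGACGTCA was found in 1.57%, TGACG in 18.4%, CACGTG in 5.49%, GGGCGG in 40.1%, CCAAT in 28.0%, and CGGAAG in 14.6%. Of the 48 genes of the set with a promoter in the table, 4, 21, 3, 31, 11, and 17 held them. A match describes the letters of the window and not a binding site.

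Of the 52 genes, 9 were differentially expressed (DE) at an adjusted P-value of at most 0.05 (17.3%, against 13.2% of the 13599 tested genes). Upregulated in the case group were *CLTA*, *AP2S1*, *TSG101*, and *VPS37B* (7.69% of the set, background 7.34%), and downregulated were *AP2B1*, *FCHO2*, *DNM1*, *CBL*, and *EHD3* (9.62%, background 5.84%). With 9 genes in all, neither share is read as particular to the set. Fold changes are given as log2(FC), case minus control, on scaled FPKM values to which 0.1 was added, which understates the change of low genes. On these scaled values, by which overlap is judged for every gene, the groups did not overlap in 26 genes (50%, background 39.9%), 11 higher (21.2%, background 19.5%) and 15 lower (28.8%, background 20.4%) in the case group. The median log2(FC) of the 52 genes was -0.13, against -0.0017 over all tested genes, with 19 genes above 0 and 33 below 0. It was -0.0865 without case replicate 1, -0.21 with FPKM unscaled, and -0.33 with TPM. These calls rested on 3 replicates a group: by the same limma fit, 0 of the 52 genes were called without control replicate 1, 2, or 3 or without case replicate 3 (between 13 and 18 had an unadjusted P-value under 0.05), 9 without case replicate 1, and 22 without case replicate 2. Of all tested genes, 0.771%, 0.507%, and 0.64% were called without control replicates 1, 2, and 3 and 1.41% without case replicate 3. Without case replicate 1 the background was 16.8%, and without case replicate 2 it was 25.7% (13.4% higher and 12.4% lower). The split of the calls also moved with the scaling, to 4 higher (background 4.87%) and 9 lower (background 8.27%) with FPKM unscaled and to 2 higher (background 2.82%) and 13 lower (background 17.6%) with TPM, where the median log2(FC) of all tested genes was itself -0.08 and -0.19. By voom on the recovered reads, 17 of the 52 genes were called, among them all 9, against a background of 20.7% (6 higher, background 9.56%, and 11 lower, background 11.1%). The 8 others were *BIN1* and *SH3KBP1*, higher, and *AP2A1*, *CLTC*, *EEA1*, *ITSN1*, *ITSN2*, and *SYNJ1*, lower. Calls are by limma on the scaled log2 values unless another fit is named.

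**Figure D1:**
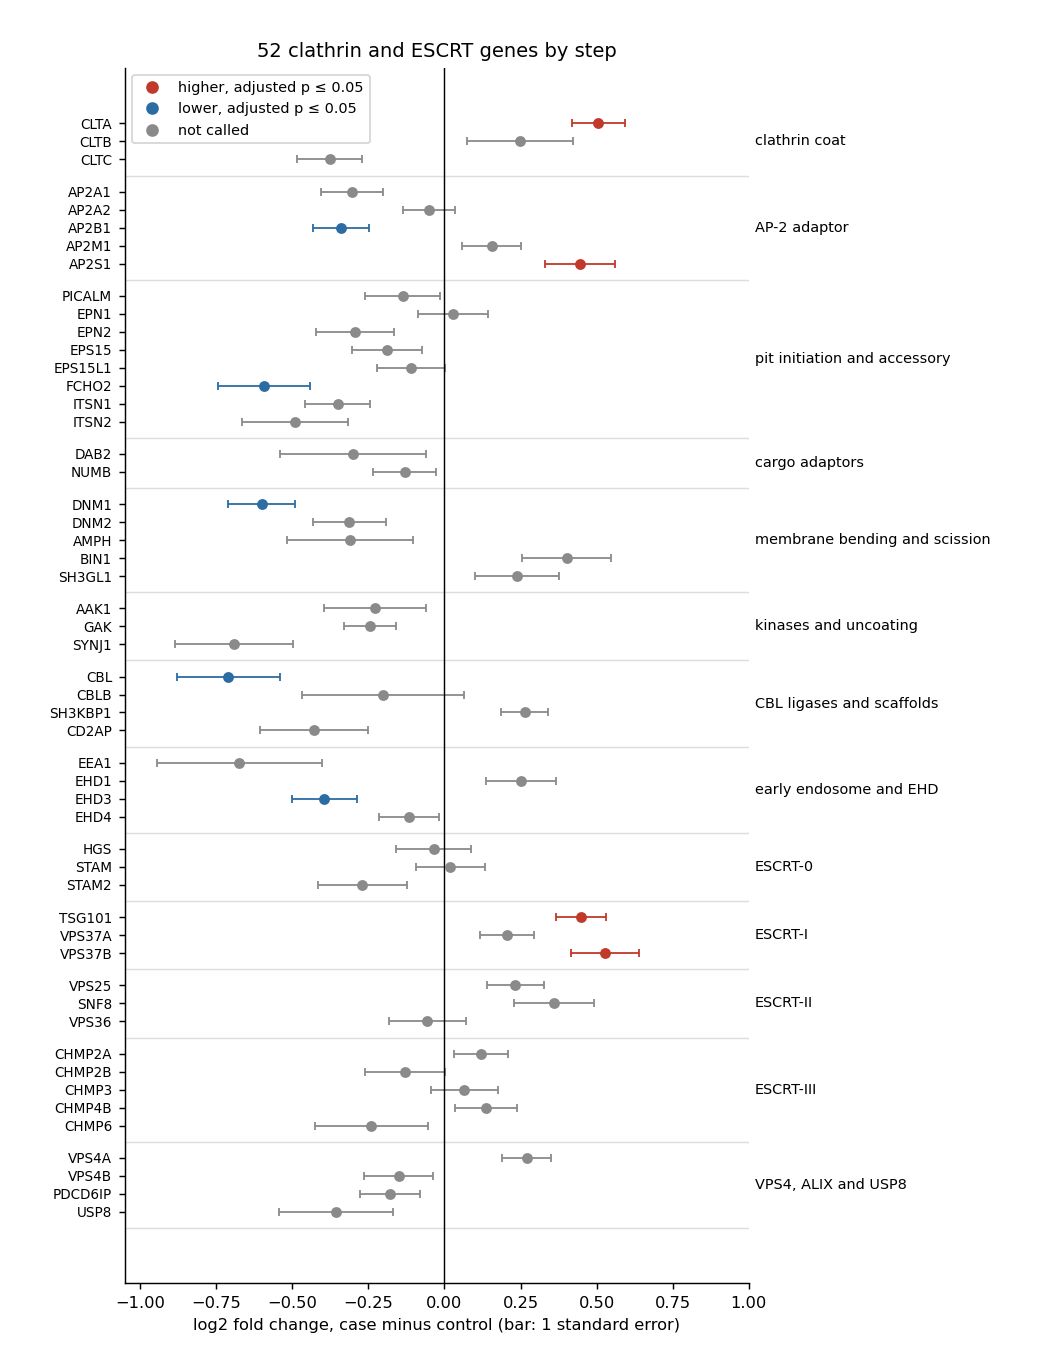
Log2 fold change (case minus control, x axis) of the 52 genes, grouped by step of the pathway, with 1 standard error (n = 3 a group). Genes called higher (red) were CLTA, AP2S1, TSG101 and VPS37B, and genes called lower (blue) were AP2B1, FCHO2, DNM1, CBL and EHD3; all 3 ESCRT-I genes lie right of 0.

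In the clathrin coat, the light chain *CLTA* was upregulated, and the heavy chain *CLTC* was lower in every case library without passing the test. *CLTA*, the more abundant light chain, was measured at 153, 144, and 140.5 FPKM in control replicates 1 to 3 and at 198, 184, and 208 FPKM in case replicates 1 to 3. All case libraries lay above all control libraries (log2(FC) = 0.51, SE = 0.09, adjusted P-value = 0.0159, limma on scaled log2 values), and the adjusted P-value was between 0.00315 and 0.0882 over the 19 alternatives. *CLTC*, the heavy chain that forms the cage, was at 54.00, 57.8, and 53.2 FPKM in the control and 33.8, 47.5, and 40.2 FPKM in the case group. Every case library was lower than every control library, and the adjusted P-value lay just above the threshold (log2(FC) = -0.38, SE = 0.11, adjusted P-value = 0.0532, and between 0.0125 and 0.356 over the alternatives). *CLTC* was called lower in 8 of the 19 alternatives, voom among them. *CLTB*, the second light chain, was at 43.3, 43.4, and 51.1 against 64.4, 41.3, and 51.7 FPKM, where the groups overlapped (log2(FC) = 0.25, SE = 0.17, adjusted P-value = 0.348).

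The ratio of *CLTA* to *CLTC* within a library, which does not depend on the scaling between libraries, was 2.83, 2.49, and 2.64 in control and 5.84, 3.87, and 5.17 in case replicates 1 to 3. The means were 2.65 ± 0.171 and 4.96 ± 1.00 (SD, n = 3), and no value of one group reached the other. An exact two-sided permutation test gave P = 0.1, the smallest value that 3 against 3 libraries allow (adjusted over the 6 ratios, 0.15). The ratio pairs were chosen after the values had been seen, and they pair genes of unequal length (2515 bases for *CLTA* and 11836 for *CLTC*). Within AP-2, *AP2S1* over *AP2B1* was 0.958, 0.859, and 0.953 in control and 1.80, 1.21, and 1.84 in case replicates (exact permutation P = 0.1, adjusted 0.15). *CLTA* over *CLTB*, the ratio of the light chains, was 3.20 ± 0.406 against 3.85 ± 0.706 (SD, n = 3) and overlapped (exact permutation P = 0.3, adjusted 0.3).

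**Figure D2:**
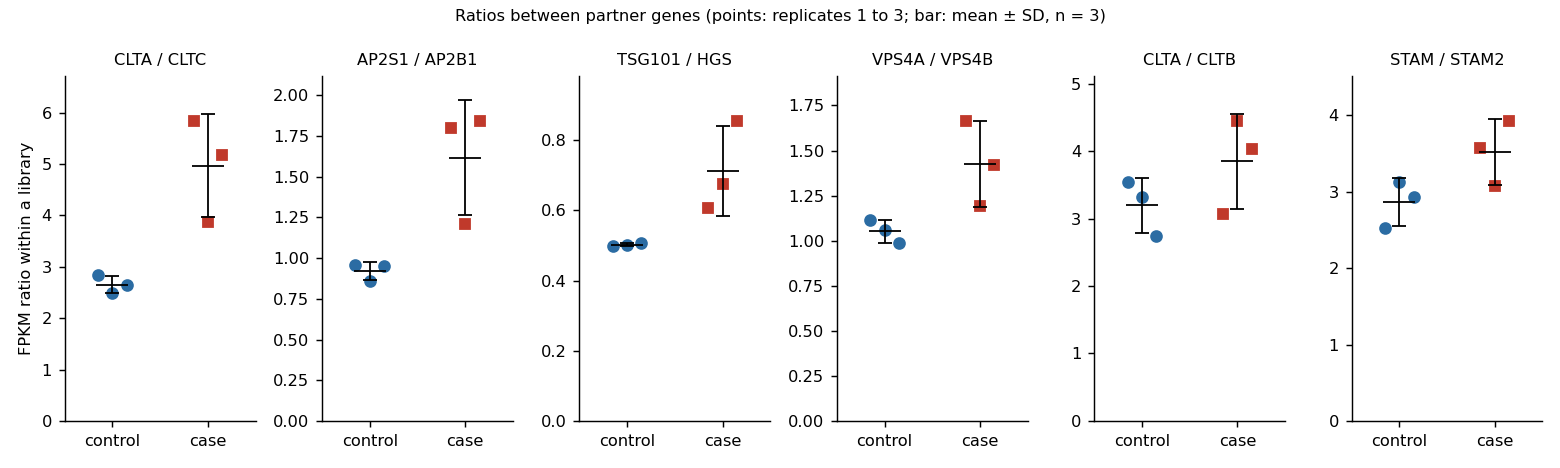
Ratio of FPKM values between partner genes within each library (y axes from 0) for control (blue circles) and case (red squares) replicates 1 to 3 from left to right, with mean ± SD. All 6 ratios computed are shown: in the 4 panels on the left the case libraries lie above the control libraries, and in CLTA over CLTB and STAM over STAM2 the groups overlap; CLTA over CLTC runs from 2.49 to 2.83 in the control and from 3.87 to 5.84 in the case group.

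Of the 5 genes of the set that encode subunits of AP-2, the adaptor that links cargo and lipid to clathrin, 1 was upregulated and 1 was downregulated. The small sigma subunit *AP2S1* was upregulated, at 97.03, 93.4, and 98.3 FPKM in the control and 137, 108, and 129 FPKM in the case group (log2(FC) = 0.45, SE = 0.11, adjusted P-value = 0.0422, and between 0.00702 and 0.154 over the alternatives). The clathrin-binding beta subunit *AP2B1* was downregulated, at 101, 109, and 103 against 76.3, 89.3, and 70.1 FPKM (log2(FC) = -0.34, SE = 0.09, adjusted P-value = 0.0497, and between 0.0149 and 0.185 over the alternatives). In both genes the groups were separate, with case replicate 2 the nearest to the control libraries. The cargo-binding mu subunit *AP2M1*, the most abundant of the complex, was at 131, 131, and 138 against 156, 137, and 131 FPKM (log2(FC) = 0.15, SE = 0.10, adjusted P-value = 0.298). On the scaled values its case libraries all lay above the control libraries, and its sign turned with TPM and with quantile scaling. The large alpha subunits *AP2A1* and *AP2A2* had log2(FC) values of -0.30 and -0.05 and were not called by limma (adjusted P-values of 0.0836 and 0.72). Voom called *AP2A1* lower (adjusted P-value = 0.0452) and did not call *AP2A2*.

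Among the 8 genes of pit initiation, *FCHO2* was the DE gene. *FCHO2*, a membrane-bending F-BAR protein that marks the place of a new pit, was measured at 4.10, 4.40, and 3.75 FPKM in control and at 2.08, 3.24, and 2.39 FPKM in case replicates 1 to 3. It was lower in all 3 case libraries (log2(FC) = -0.59, SE = 0.15, adjusted P-value = 0.0413, and between 0.00892 and 0.151 over the alternatives). *PICALM* (CALM, which recruits clathrin to lipid and sets vesicle size), the most abundant gene of the step, was at 22.1, 24.3, and 24.8 against 16.4, 24.1, and 21.5 FPKM and overlapped (log2(FC) = -0.14, SE = 0.12, adjusted P-value = 0.468). The scaffolds *EPS15*, *EPS15L1*, *ITSN1*, and *ITSN2* and the epsins *EPN1* and *EPN2* had log2(FC) values from -0.49 (*ITSN2*) to 0.03 (*EPN1*), with no call by limma. The groups did not overlap for *ITSN1* and *ITSN2*, which were lower in every case library. Voom called both lower (adjusted P-values of 0.0216 and 0.0289). Of the cargo adaptors, *NUMB*, which brings Notch and integrins to the pit, was at 9.32, 9.90, and 9.44 against 7.42, 9.80, and 7.74 FPKM (log2(FC) = -0.13, SE = 0.10, adjusted P-value = 0.412), and *DAB2*, the adaptor of megalin, was at most 1.11 FPKM in every library (log2(FC) = -0.30, adjusted P-value = 0.418).

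*DNM1* was downregulated in the group of membrane bending and scission. *DNM1*, the dynamin best known from neurons, was at 6.67, 7.01, and 7.06 FPKM in the control and 4.71, 4.40, and 3.81 FPKM in the case group. The groups were well separated (log2(FC) = -0.60, SE = 0.11, adjusted P-value = 0.0182, and between 0.00272 and 0.13 over the alternatives). *DNM2*, the ubiquitous dynamin and the more abundant in these cells (24.6 ± 1.26 against 18.9 ± 2.58 FPKM, SD, n = 3), was also lower in every case library but was not called (log2(FC) = -0.31, SE = 0.12, adjusted P-value = 0.114), and with length corrected its log2(FC) was -0.01 (adjusted P-value = 0.975 by limma). *SH3GL1* (endophilin A2), the most abundant gene of the group, was at 50.4, 48.5, and 53.8 against 69.1, 50.9, and 52.4 FPKM, with the high value in case replicate 1 only (log2(FC) = 0.24, SE = 0.14, adjusted P-value = 0.267). *BIN1*, an amphiphysin that shapes membrane tubules, was higher in every case library without a call by limma (log2(FC) = 0.40, adjusted P-value = 0.101). By voom *BIN1* was called (adjusted P-value = 0.0448). *AMPH* was at 1.04 FPKM or less in each library.

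No kinase or uncoating gene was called by limma on the scaled log2 values. *SYNJ1* (synaptojanin 1, the lipid phosphatase of uncoating) was at 1.53, 1.58, and 1.35 FPKM in the control and 0.645, 1.05, and 0.855 FPKM in the case group, with no overlap between the groups, and did not pass the threshold (log2(FC) = -0.69, SE = 0.19, adjusted P-value = 0.0524). By voom *SYNJ1* was called lower (adjusted P-value = 0.0095). Its 87 to 230 reads a library were among the lowest counts of the set. *GAK*, the auxilin that hands clathrin to HSC70, was at 8.54, 8.51, and 8.13 against 6.90, 6.64, and 6.55 FPKM, lower in all case libraries (log2(FC) = -0.25, SE = 0.08, adjusted P-value = 0.0903). *AAK1*, the kinase of the AP-2 mu subunit, had a log2(FC) of -0.23 and overlapped. With length corrected *GAK* and *AAK1* were both above 0, at 0.09 and 0.23.

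*CBL*, the ubiquitin ligase of activated growth factor receptors, had the lowest log2(FC) of the 52 genes on the scaled values before length was considered. By voom *SYNJ1* was lower (-0.753 against -0.719 for *CBL*). *CBL* was measured at 9.21, 9.66, and 8.95 FPKM in control and at 4.41, 7.41, and 4.64 FPKM in case replicates 1 to 3. Case replicates 1 and 3 were close to each other and case replicate 2 stood between them and the control libraries (log2(FC) = -0.71, SE = 0.17, adjusted P-value = 0.0341, and between 0.00481 and 0.122 over the alternatives). Its relative *CBLB* was at most 0.637 FPKM in each library and was not called. *SH3KBP1* (CIN85), which links *CBL* to endophilin and is the most abundant of this group, was at 25.4, 23.9, and 26.01 against 28.2, 28.01, and 29.5 FPKM, higher in every case library (log2(FC) = 0.26, SE = 0.08, adjusted P-value = 0.0572). *CD2AP*, its paralog, was lower in every case library (log2(FC) = -0.43, adjusted P-value = 0.138).

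On the early endosome, *EHD3*, an ATPase of recycling tubules, was downregulated from 5.24, 5.25, and 5.03 FPKM in the control replicates to 3.72, 4.17, and 3.29 FPKM in the case replicates, with no overlap (log2(FC) = -0.39, SE = 0.11, adjusted P-value = 0.0476, and between 0.019 and 0.165 over the alternatives). *EHD1*, the most abundant of the 3 EHD genes of the set, was at 43.6, 41.2, and 40.1 against 53.9, 44.7, and 42.9 FPKM and was not called (log2(FC) = 0.25, SE = 0.11, adjusted P-value = 0.17). The log2(FC) values of these 3 genes thus had both signs. *EHD2*, a family member at the neck of caveolae that is outside the set and is named after its values were seen, fell from 48.5, 50.4, and 49.7 to 35.8, 35.1, and 32.4 FPKM (log2(FC) = -0.45, SE = 0.08, adjusted P-value = 0.0166), and its call held in 15 of the 19 alternatives, length correction included. *EEA1*, the tether of early endosomes, was at 2.66, 2.77, and 3.01 FPKM in the control and 0.937, 2.32, and 1.98 FPKM in the case group. Case replicate 1 was far below the other case libraries, and the limma test was not passed (log2(FC) = -0.67, SE = 0.27, adjusted P-value = 0.129). By voom *EEA1* was called lower (adjusted P-value = 0.0377).

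**Figure D3:**
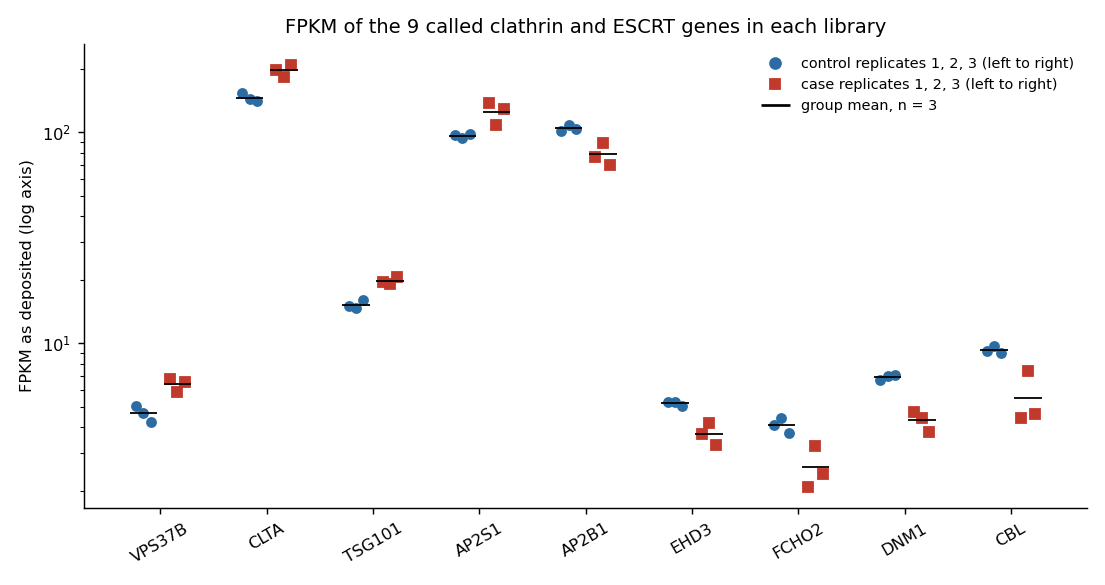
FPKM as deposited (y axis, log scale) of the 9 called genes in control replicates 1 to 3 (blue circles) and case replicates 1 to 3 (red squares), with the group means as lines. The groups do not overlap in any of the 9 genes; CBL ran from 8.95 to 9.66 in the control and from 4.41 to 7.41 in the case group.

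In ESCRT-I, all 3 genes of the set were higher in the case group on the scaled values, and 2 of them were DE genes. *TSG101*, the subunit that binds ubiquitin and the late-domain motif of its partners, was at 14.97, 14.6, and 16.02 FPKM in the control and 19.6, 18.98, and 20.6 FPKM in the case group. All case libraries were higher and lay close together (log2(FC) = 0.45, SE = 0.08, adjusted P-value = 0.0183, and between 0.00628 and 0.102 over the alternatives). *VPS37B*, a structural subunit of the complex, was at 5.01, 4.69, and 4.24 against 6.74, 5.89, and 6.54 FPKM, again without overlap (log2(FC) = 0.53, SE = 0.11, adjusted P-value = 0.0252, and between 0.00786 and 0.106 over the alternatives). *VPS37A*, its paralog, was at 6.64, 6.60, and 6.73 against 6.59, 8.20, and 7.17 FPKM, with case replicate 1 below the control libraries before scaling and above them after it, and was not called (log2(FC) = 0.20, SE = 0.09, adjusted P-value = 0.152). On the scaled log2 values all 3 ESCRT-I genes lay above the control group without overlap, against 11 of the 52 genes and 19.5% of all tested genes. Of 6 further tested ESCRT-I subunits, 0 were called by limma with or without length corrected (1 of them, *VPS37C*, had an unadjusted P-value under 0.05 without it and was called by voom), 4 had log2(FC) values above 0 and 2 below 0. *VPS37C* (0.33), *VPS37D* (0.46), and *UBAP1* (0.17) were higher without overlap, while *VPS28* (0.29), *MVB12A* (-0.16), and *MVB12B* (-0.18) overlapped between the groups. Among the 19 alternatives, *TSG101* kept its call in 15, *CLTA* in 14, *VPS37B* and *DNM1* in 12, *FCHO2* in 11, *CBL* and *EHD3* in 10, and *AP2S1* and *AP2B1* in 9.

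ESCRT-0, ESCRT-II, and ESCRT-III held no DE gene. *HGS* (HRS), the ubiquitin-binding core of ESCRT-0, was at 30.1, 29.1, and 31.5 against 32.3, 28.2, and 24.02 FPKM (log2(FC) = -0.04, SE = 0.12, adjusted P-value = 0.864), and its partners *STAM* and *STAM2* had log2(FC) values of 0.02 and -0.27. *TSG101* over *HGS*, the ratio of the receiving to the delivering subunit, was 0.498, 0.502, and 0.508 in control and 0.606, 0.674, and 0.855 in case replicates (exact permutation P = 0.1, adjusted 0.15). In ESCRT-II, *VPS25* was at 32.3, 30.4, and 29.4 against 35.1, 31.5, and 36.1 FPKM (log2(FC) = 0.23, SE = 0.09, adjusted P-value = 0.129), *SNF8* had a log2(FC) of 0.36 with no overlap (adjusted P-value = 0.102), and *VPS36* one of -0.06. In ESCRT-III, whose subunits polymerise at the neck of the vesicle, *CHMP4B* was at 76.5, 75.01, and 84.1 against 88.96, 75.4, and 81.4 FPKM (log2(FC) = 0.14, SE = 0.10, adjusted P-value = 0.378). The 5 ESCRT-III genes had log2(FC) values from -0.24 (*CHMP6*) to 0.14 (*CHMP4B*), and all of them overlapped between the groups. The signs of *CHMP4B*, *CHMP2A*, *VPS36*, and *STAM* turned with quantile scaling. With FPKM unscaled or TPM, the median log2(FC) of all tested genes was itself below 0. *CHMP2A*, *CHMP3*, *CHMP4B*, *EPN1*, and *STAM* fell below 0 in at least 1 of these settings but stayed above that median.

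The last step likewise held no DE gene. *PDCD6IP* (ALIX, a bridge between ESCRT-I and ESCRT-III) was at 12.2, 13.3, and 13.3 against 9.49, 12.5, and 10.7 FPKM and overlapped (log2(FC) = -0.18, SE = 0.10, adjusted P-value = 0.242). *VPS4A*, an ATPase that takes the ESCRT-III polymer apart, was at 8.93, 9.01, and 8.31 against 9.86, 10.03, and 10.2 FPKM, higher in every case library (log2(FC) = 0.27, SE = 0.08, adjusted P-value = 0.0609), while its paralog *VPS4B* had a log2(FC) of -0.15. *VPS4A* over *VPS4B* was 1.11, 1.06, and 0.985 in control and 1.66, 1.19, and 1.42 in case replicates (exact permutation P = 0.1, adjusted 0.15). *USP8*, a deubiquitinase of the endosome, had a log2(FC) of -0.36 (adjusted P-value = 0.22). *STAM* over *STAM2*, the last of the 6 ratios, was 2.86 ± 0.310 against 3.53 ± 0.432 (SD, n = 3; exact permutation P = 0.2, adjusted 0.24).

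The change of a gene varied with its length (the length behind the FPKM values) over the whole table, and the 52 genes are long. When the tested genes were divided by length into 5 groups, the median log2(FC) from the shortest to the longest was 0.16, 0.13, 0.01, -0.08, and -0.21. Upregulated genes made up 9.78% of the shortest and 2.02% of the longest group, and downregulated genes 2.096% and 13.7%. Per doubling of length, the slope was -0.097, -0.051, and -0.108 on the log2 scale in case replicates 1, 2, and 3, against -0.002, 0.016, and -0.014 in the control replicates. Case replicate 2 thus showed the weakest slope of the case group. The median length of the 52 genes was 7012 bases, against 4329 bases over all tested genes, and 23 of them fell in the longest group. Those 23 had a median log2(FC) of -0.30, with 15 below and 8 above the median of their length group. Over all 52 genes, the median distance from the median of the length group was -0.02.

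**Figure D4:**
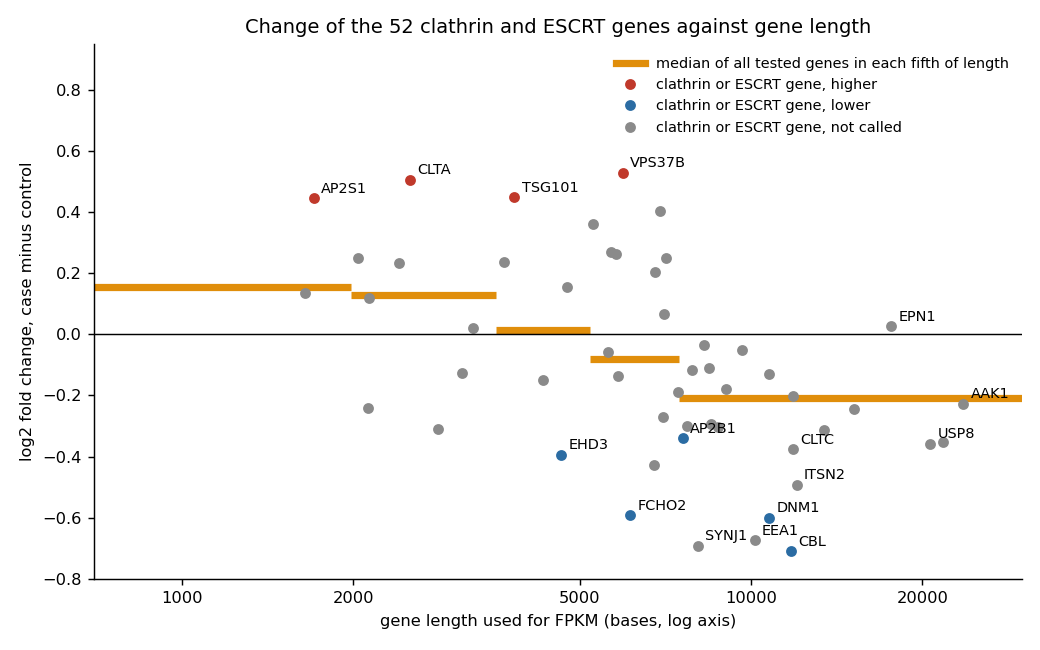
Log2 fold change (case minus control, y axis) of the 52 genes against the gene length behind the FPKM values (x axis, log scale), with the median of all tested genes in each of 5 length groups as orange bars. The bars fall from 0.16 to -0.21, and the upregulated genes AP2S1, CLTA, TSG101 and VPS37B lie above them at lengths from 1704 to 5953 bases.

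With a smooth curve of length subtracted in each library, 8 of the 52 genes were called (15.4%, background 10.9%). Higher (11.5%, background 6.43%) were *CLTA* (log2(FC) = 0.37), *TSG101* (0.40), *VPS37B* (0.59), *VPS37A* (0.30), *VPS4A* (0.32), and *SH3KBP1* (0.32), and lower (3.85%, background 4.46%) were *FCHO2* (-0.52) and *EHD3* (-0.39). Of these, 5 were also called without the correction. The 3 ESCRT-I genes of the set were called after it, with a median log2(FC) of 0.40 against 0.45 before, but this was the only 1 of the 19 alternatives that called *VPS37A*, and the call was lost when the replicate block was added. *AP2S1*, *AP2B1*, *DNM1*, and *CBL* were no longer called, with log2(FC) values of 0.28, -0.21, -0.36, and -0.45 and adjusted P-values of 0.0566, 0.116, 0.119, and 0.0544 by limma. *CLTC* moved from -0.38 to -0.11, *ITSN1* from -0.35 to 0.08, and *USP8* from -0.36 to 0.06. The sign turned in 13 of the 52 genes, of which *AP2A2*, *EPS15L1*, *ITSN1*, *NUMB*, *AAK1*, *GAK*, *CBLB*, *EHD4*, *HGS*, and *USP8* went from below to above 0, and *STAM*, *CHMP2A*, and *CHMP4B* from above to below 0. None of the 13 was a DE gene before the correction. The median log2(FC) of the 52 genes moved from -0.13 to 0.0075, and 26 of them were then above 0. By step, the medians before and after were 0.25 and 0.09 for the coat, -0.05 and 0.15 for AP-2, -0.24 and -0.07 for pit initiation, -0.22 and -0.03 for the cargo adaptors, and -0.31 and -0.01 for bending and scission. They were -0.25 and 0.09 for kinases and uncoating, -0.32 and -0.13 for the CBL group, and -0.26 and -0.19 for the early endosome. For ESCRT-0 they were -0.04 and -0.07, for ESCRT-II 0.23 and 0.09, for ESCRT-III 0.07 and -0.03, and for VPS4, ALIX and *USP8* -0.16 and 0.03.

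**Figure D5:**
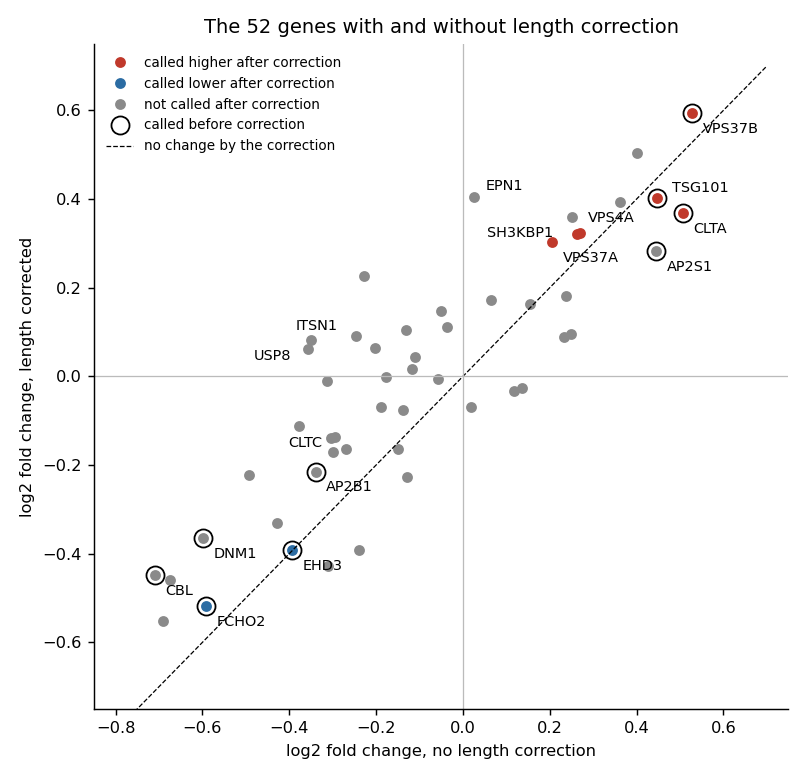
Log2 fold change of the 52 genes without (x axis) and with (y axis) the subtraction of a length curve, where the dashed line marks equal values and black rings mark the 9 genes called without it. Long genes such as CLTC (from -0.38 to -0.11), ITSN1 and USP8 move toward 0 or above it, while TSG101, VPS37B and EHD3 stay near the line.

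Related genes from 5 further lists gave a wider view. Of 40 other tested coated-pit genes, 1 was upregulated and 9 were downregulated (backgrounds 7.34% and 5.84%), and with length corrected 1 and 7 were (backgrounds 6.43% and 4.46%). Voom (background 20.7%) also called *HIP1R*, *PIK3C2A*, and *BMP2K*, all lower (adjusted P-values of 0.0393, 0.00803, and 0.0475). *HSPA8*, which encodes HSC70, the chaperone that removes the clathrin coat, fell from 275, 279, and 268 FPKM in the control to 116, 115, and 124 FPKM in the case group (log2(FC) = -1.13, SE = 0.07, adjusted P-value = 0.00152). The case libraries lay close together, and the call held in all 19 alternatives. *CBLC*, the epithelial relative of *CBL*, fell from 19.03, 17.1, and 18.7 to 9.28, 9.31, and 8.90 FPKM (log2(FC) = -0.91, SE = 0.08, adjusted P-value = 0.00223), and its call also held in all 19. In both genes the difference between the groups was several times the spread between replicates. *HIP1*, which ties clathrin to actin, fell from 5.44, 5.76, and 5.27 to 2.62, 3.59, and 2.96 FPKM (log2(FC) = -0.76, SE = 0.11, adjusted P-value = 0.0127), and *FNBP1*, an F-BAR protein, from 13.5, 13.8, and 13.6 to 8.34, 9.79, and 8.13 FPKM (log2(FC) = -0.56, SE = 0.09, adjusted P-value = 0.0131). *ARRB1* (beta-arrestin 1, an adaptor of G protein-coupled receptors) fell from 1.82, 1.78, and 2.20 to 0.924, 0.930, and 0.625 FPKM (log2(FC) = -1.08, SE = 0.20, adjusted P-value = 0.0182). *ARRB2*, its more abundant paralog, was at 28.5, 27.7, and 30.7 against 30.4, 28.9, and 26.8 FPKM and overlapped (log2(FC) = 0.06, SE = 0.09, adjusted P-value = 0.656). The upregulated gene was *REPS1*, an EPS15-related protein (log2(FC) = 0.43, adjusted P-value = 0.0223).

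Of 22 tested cargo receptors, 1 was upregulated and 6 were downregulated, against backgrounds of 7.34% and 5.84%. With length corrected, 1 was higher (background 6.43%) and 2 were lower (background 4.46%). *LRP5*, a coreceptor of Wnt, fell from 20.9, 19.5, and 20.01 to 13.9, 13.2, and 11.5 FPKM (log2(FC) = -0.57, SE = 0.10, adjusted P-value = 0.0167), and *IGF1R* from 6.51, 6.79, and 6.43 to 3.31, 4.94, and 3.91 FPKM (log2(FC) = -0.63, SE = 0.13, adjusted P-value = 0.0226). *LRP1*, a large scavenger receptor, fell from 7.39, 7.24, and 6.98 to 4.05, 4.98, and 3.19 FPKM (log2(FC) = -0.75, SE = 0.15, adjusted P-value = 0.0213), and *NOTCH2* from 3.32, 3.07, and 2.91 to 1.58, 2.25, and 1.61 FPKM (log2(FC) = -0.68, SE = 0.15, adjusted P-value = 0.0256). *LRP5* and *IGF1R* kept their call with length corrected, and *LRP1* and *NOTCH2*, with lengths of 20839 and 16804 bases behind their FPKM, did not. *EGFR*, the classical cargo of *CBL* and ESCRT, was at 18.98, 19.6, and 18.7 against 11.8, 17.7, and 13.3 FPKM, lower in each case library but not called by limma (log2(FC) = -0.36, SE = 0.13, adjusted P-value = 0.0909). By voom *EGFR* was called lower (adjusted P-value = 0.0386). With length corrected its log2(FC) was -0.08 (adjusted P-value = 0.515 by limma). The transferrin receptor *TFRC* was at 58.7, 61.9, and 58.4 against 51.9, 72.9, and 59.4 FPKM (log2(FC) = 0.10, SE = 0.11, adjusted P-value = 0.527). The groups overlapped, and the sign turned with quantile scaling.

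By limma on scaled values, each of the remaining lists held 1 DE gene, where the background was 13.2% (7.34% higher and 5.84% lower). Voom (background 20.7%) called further genes. Among the ESCRT genes these were *VPS37C*, higher, and *CHMP5* and *PTPN23*, lower. In the Golgi list they were *AP1S3* and *SYNRG*, and in retromer *WASHC4*, all lower. Of 18 other tested ESCRT genes, the 6 ESCRT-I subunits among them, 0 were upregulated and 1 was downregulated by limma, *VTA1*, the cofactor of VPS4, from 8.76, 8.79, and 8.49 to 5.83, 7.23, and 6.37 FPKM (log2(FC) = -0.35, SE = 0.09, adjusted P-value = 0.0416). With length corrected *VTA1* was not called (adjusted P-value = 0.0781 by limma), while *CHMP5* was lower and *STAMBPL1* higher (adjusted P-values of 0.041 and 0.0371), which are named after their values were seen. Of 19 tested clathrin adaptors of the Golgi and endosome, *AP1G1*, the gamma subunit of AP-1, fell from 11.6, 12.5, and 10.8 to 6.63, 9.23, and 7.56 FPKM (log2(FC) = -0.50, SE = 0.12, adjusted P-value = 0.0313), and it was not called with length corrected. Of 20 genes of retromer and recycling, *COMMD1* rose from 6.21, 5.60, and 6.28 to 8.41, 7.11, and 8.05 FPKM (log2(FC) = 0.45, SE = 0.11, adjusted P-value = 0.0366), and it too was not called with length corrected, when *VPS35*, the core subunit of retromer, was higher (log2(FC) = 0.42, adjusted P-value = 0.0139 by limma; 0.22 and 0.113 without the correction), also named after its values were seen. The median log2(FC) was -0.20 for the coated-pit list, 0.09 for the ESCRT list, -0.09 for the Golgi list, -0.28 for the cargo receptors, and 0.05 for retromer. With length corrected these medians were -0.08, 0.07, 0.01, -0.16, and -0.04.

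Exon bases were shared with another annotated gene in 27 of the 52 genes and in 5 of the 9 called ones. Opposite to the gene lay *CIZ1* for *DNM1*, *MCAM* for *CBL*, and *LDHAL6A* for *TSG101*, and *TSG101* also shares bases with *YWHABP2* on its own strand. *VPS37B* shares bases with annotated genes that have no symbol. Strand use in counting is not given in the sources used here, so reads of such pairs cannot be told apart. *CLTA*, *AP2S1*, *FCHO2*, and *EHD3* shared no exon bases with another gene. On GRCh38, the 4 upregulated genes lie at chr9:36190856-36304781 (*CLTA*), chr19:46838136-46850846 (*AP2S1*), chr11:18468336-18526951 (*TSG101*), and chr12:122865330-122896127 (*VPS37B*). The 5 downregulated genes lie at chr17:35578046-35726413 (*AP2B1*), chr5:72956041-73090522 (*FCHO2*), chr9:128191655-128255248 (*DNM1*), chr11:119206298-119313926 (*CBL*), and chr2:31234152-31269451 (*EHD3*).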

How the data were processed

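The data are 6 RNA sequencing libraries from HK-2 cells (3 control, 3 case). The authors filtered the reads, aligned them to GRCh38.p13 with HISAT2 2.1.0, counted them on genes with HTSeq 0.6.0 (as the submitters' processing notes and the paper's methods give), and deposited FPKM values of 29483 genes. RNA selection, strandedness, and the annotation version are not given in the sources used here. Whole reads and gene lengths were recovered for 27117 of the 27922 genes above 0 (97.12%, tolerance 0.02 reads). Of these, 23245 were resolved from the steps of the FPKM values and 489 from the steps with a common factor. The other 3383 were resolved with the gene length of the annotation. The depth was between 15313255 and 18596919 recovered reads a library, and counting error is the least error of any value. Molecular identifiers are not mentioned in the sources used here, so reads need not be separate molecules.

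Each library was scaled by a median-of-ratios factor, and log2 values were taken with a pseudocount of 0.1. The 13599 genes whose mean FPKM reached 0.5 were tested with limma 3.58.1 in R 4.3.3, with an intensity trend and no covariates. P-values were adjusted over all of them by the Benjamini-Hochberg method, and the procedure was tested on simulated data. For the length correction, a lowess curve (span 0.3) of each library's deviation against log2 length was subtracted. Symbols and positions came from an annotation of GRCh38 by Ensembl identifier (29063 genes), and promoters from RefSeq. Ratios were compared by exact permutation tests. The 19 alternatives concern the pseudocount, filter, scaling, variance model, replicate block, length, voom on recovered reads, and leaving out each library.

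Values by library are given for the called genes, the most abundant gene of each of 13 steps, uncalled genes with an absolute log2(FC) of at least 0.5, 8 chosen related genes, and up to 4 called genes with the smallest P-values in each of 5 related lists. Other genes, among them *CLTC*, *CLTB*, *VPS37A*, and *VPS4A*, were picked with their values in view. A few items are not reported here. The 52 genes and the lists were chosen with earlier results of these data known.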

Additional observations from a re-analysis of the deposited data

How the results depend on the processing

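Among the 52 genes, the calls higher and lower (4 and 5) became 1 and 0 with no filter on low values (22 genes had an unadjusted P-value under 0.05 by limma), 4 and 9 with FPKM unscaled, 2 and 13 with TPM, 2 and 1 without the intensity trend, 6 and 2 with gene length correction, 3 and 0 with that correction plus the replicate block (9 lower genes had an unadjusted P-value under 0.05), and 6 and 11 by voom. The median log2 fold change of the set (-0.13) became -0.21 unscaled, -0.33 with TPM and 0.0075 with the length correction, with or without the block. Over all tested genes, the calls higher and lower (998 and 794) became 347 and 177 with no filter, 662 and 1124 unscaled, 383 and 2387 with TPM, 436 and 416 without the trend, 528 and 370 with block plus length correction, and 1300 and 1510 by voom. Leaving out each library in turn gave a median of the set between -0.189 and -0.0865, between 0 and 9 genes of the set higher and between 0 and 13 lower, and between 55 and 1813 higher and 14 and 1682 lower over all tested genes, with the most calls without case replicate 2. The cause was not tested.

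Among the 52 genes, the sign turned in 17 under at least 1 of the 19 alternatives, 0 of them DE genes at the settings reported above. It turned in 13 with length corrected (with or without the block), 6 with TPM, 5 with quantile normalization, 3 unscaled, and between 0 and 2 on leaving out a library. *AP2M1* was -0.045 with TPM and -0.051 with quantile normalization, *CHMP4B* -0.063 and -0.028 (-0.027 with length corrected, with or without the block), *TFRC* -0.095 and -0.039, and *ARRB2* -0.136 and -0.036 (-0.013 unscaled). The unscaled and TPM values lay above the medians of all tested genes there (-0.08 and -0.19) and so follow that shift, while with quantile normalization the median was -0.0037. Leaving out a library in turn, *TFRC* ranged from -0.0032 to 0.196, *ARRB2* from -0.0016 to 0.118, and *HGS* from -0.162 to 0.079. With length corrected, with or without the block, *NUMB* was 0.104, *GAK* 0.091, and *HGS* 0.112. *GAK* was called with FPKM unscaled, TPM, and without case replicate 1.

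The labels do not say whether the replicate numbers pair the samples. Deviations of same-numbered libraries correlated at 0.063, 0.0999, and -0.053 across 13599 genes, which are not independent. Those of libraries with other numbers correlated at between -0.182 and 0.117. With 3 libraries a group, these values cannot decide whether the samples were paired. With the replicate block, 8 of the 52 genes and 1610 of all tested genes were called. The 9 DE genes had at least 213 reads in each library, and the fewest of the set were the 26 to 51 reads of *AMPH*, where counting error is largest.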
